A study of Mus musculus with 6 samples.

Results

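The heat shock genes described here were Hsf1, Hspa1a, Hspa1b, Hspa8, Hsp90aa1, Hsph1, Hspb1, Dnajb1, Hspd1 and Hspe1. They were chosen by name, as the master regulator of the heat shock response and the main chaperones of the cytosol and mitochondrial matrix. Earlier results of these data were known when they were chosen. All 10 were found among the 22000 gene symbols of the count table. RNA-seq had been carried out on prefrontal cortex (PFC) from 3 control mice and 3 mice that had gone through early life stress (ELS), with 1 library per mouse, and the comparison asked how ELS changes the PFC transcriptome. All 6 mice were wild-type C57BL/6N males aged 9 weeks, drawn from litters of the same mother. ELS consisted of social isolation: ELS mice lived alone under a filter cap from weaning, whereas control mice shared a cage without a cap, and both kept their housing until dissection and had been through behavioral tests.

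Chaperones bind proteins that are unfolded or not yet folded and keep them from clumping. Hsf1 is the transcription factor that switches on inducible chaperone genes: in resting cells it is held inactive by chaperones, and when unfolded proteins occupy these it forms trimers and binds heat shock elements, which are inverted repeats of the short unit GAA. In brain, Hspa8 and the Hsp90 proteins are known to be abundant without stress, Hspa8 takes part in recycling synaptic vesicles, and Hsp90 with its partners holds the glucocorticoid receptor ready to bind hormone.

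Positions are those of GRCm38 with GENCODE M21 annotation, and each of the 10 is a protein-coding gene. Hspa1b at chr17:34956436-34959238 and Hspa1a at chr17:34969190-34972156 are single-exon neighbours on the minus strand, 9951 bp apart. Hspd1 (chr1:55077835-55088243, minus strand) and Hspe1 (chr1:55088132-55091307, plus strand) face away from each other and overlap at their 5′ ends by 112 bases. Hsph1 (chr5:149614287-149636376, minus strand) and Hspb1 (chr5:135887919-135889563, plus strand) share a chromosome but not a neighbourhood. The others are Hsf1 (chr15:76477422-76501913, plus strand), Hspa8 (chr9:40800984-40810087, plus strand), Hsp90aa1 (chr12:110690605-110702728, minus strand) and Dnajb1 (chr8:83608193-83612653, plus strand).

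The sequences just upstream of 3 of these genes, and a short stretch upstream of the Hspe1 start, are shown because they carry the letters of the heat shock element through which Hsf1 acts. They come from RefSeq on GRCm38.p6 and are written 5′ to 3′ on the strand of the gene, with the matched element in capitals. The Hspa1a stretch is chr17:34972157-34972406 (minus strand), the Hspa1b stretch chr17:34959239-34959488 (minus strand), the Hspb1 stretch chr5:135887669-135887918 (plus strand) and the Hspe1 stretch chr1:55088054-55088081 (plus strand), which lies within the annotated Hspd1 gene, upstream of the inner of its starts but not of the outer one.
Hspa1a: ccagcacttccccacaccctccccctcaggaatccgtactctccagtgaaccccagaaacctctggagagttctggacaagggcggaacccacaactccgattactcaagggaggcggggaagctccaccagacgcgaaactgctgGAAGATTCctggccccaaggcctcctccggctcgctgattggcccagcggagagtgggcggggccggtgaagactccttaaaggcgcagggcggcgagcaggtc
Hspa1b: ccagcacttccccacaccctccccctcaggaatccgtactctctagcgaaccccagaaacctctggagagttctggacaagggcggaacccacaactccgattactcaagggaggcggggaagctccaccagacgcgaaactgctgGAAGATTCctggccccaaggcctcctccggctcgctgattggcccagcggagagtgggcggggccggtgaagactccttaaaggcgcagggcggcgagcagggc
Hspb1: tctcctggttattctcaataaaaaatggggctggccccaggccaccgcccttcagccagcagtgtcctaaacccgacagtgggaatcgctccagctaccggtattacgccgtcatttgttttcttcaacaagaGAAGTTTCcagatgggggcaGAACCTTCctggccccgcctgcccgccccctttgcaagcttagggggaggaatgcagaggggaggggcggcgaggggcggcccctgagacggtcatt
Hspe1 and Hspd1: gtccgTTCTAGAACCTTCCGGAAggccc

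The elements searched were GAANNTTC and TTCNNGAA, each made of 2 units, and GAANNTTCNNGAA and TTCNNGAANNTTC, each made of 3 units, in the 250 bases before a transcript start. The 2-unit forms read the same on both strands, the 3-unit forms are the reverse complement of each other, and a 3-unit element also holds 2-unit elements. A 2-unit element was found in 12.8% of the 32851 windows of the RefSeq table and a 3-unit element in 0.466%. Windows were available for 7 of the 10 genes. Hspa1a and Hspa1b each held 1 element, GAAGATTC, which began 104 bases before the start, and their 250 bases differed at 3 positions (98.8% identical). Hspb1 held 2 separate elements, the nearer beginning at 97 bases. Hsph1 held 1 element, which began 33 or 54 bases before its RefSeq starts and lies just inside the outer end of the GENCODE gene. The stretch upstream of Hspe1 held 3 overlapping 2-unit elements and with them 2 matches of the 3-unit form, the nearest beginning 79 bases before the Hspe1 start and 134 bases before the inner Hspd1 start. No match was found in the windows of Dnajb1 or of the outer Hspd1 start. These matches describe the letters of the windows, and Hsf1 binding was not measured.

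Total counts ran from 28405795 to 35241743 per mouse, and the 10 genes together took 0.294% to 0.340% of them. Levels are given in CPM, the count of a gene scaled to the size of the library, and each of the 10 genes reached at least 1 CPM in every mouse of a group, as did 13185 genes in all, and these were tested with edgeR's quasi-likelihood test. A gene was called at a Benjamini-Hochberg adjusted p under 0.05 with an absolute log2 fold change above 0.3, and 2 of 13185 genes were called (0.0152%). Markers of neurons (summed level 7541 to 8113 CPM over the mice), astrocytes (1276 to 1475 CPM), oligodendrocytes (5666 to 7556 CPM) and microglia (255 to 274 CPM) were present in every library, and the group ranges of these sums overlapped. Among the single markers of these classes, Cx3cr1 of microglia lay higher in all ELS mice and Aldh1l1 of astrocytes lower, both with an unadjusted p above 0.05 in edgeR. Summed striatal markers (5 of 6 in the table, with Drd1 not among them) differed within groups, reaching 183, 200 and 335 CPM in control mice 1, 2 and 3, and 310, 203 and 227 CPM in ELS mice 1, 2 and 3. In bulk tissue, fewer cells of a type and less RNA per cell cannot be told apart.

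None of the 10 heat shock genes was called in ELS mice. The adjusted p of edgeR's test was 0.99998 for each of them, and 0 of 10 had an unadjusted p under 0.05, against 4.23% of all genes tested. DESeq2, used as a second tool, also gave 0 of 10 at an unadjusted p under 0.05, against 3.72% of all genes, and called none of them while calling 0.137% of all genes. The fold changes lay between -0.21 (Hspb1) and 0.04 (Hspe1) on the log2 scale, with 8 below 0 and 2 above. Their median was -0.05, and the median over all genes tested was -0.0046, with 52.5% of all genes below 0. Without control mouse 1, the median over the 10 genes turned to 0.019. A larger absolute change than that of Hspb1 was seen in 10.2% of all genes.

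**Figure D1:**
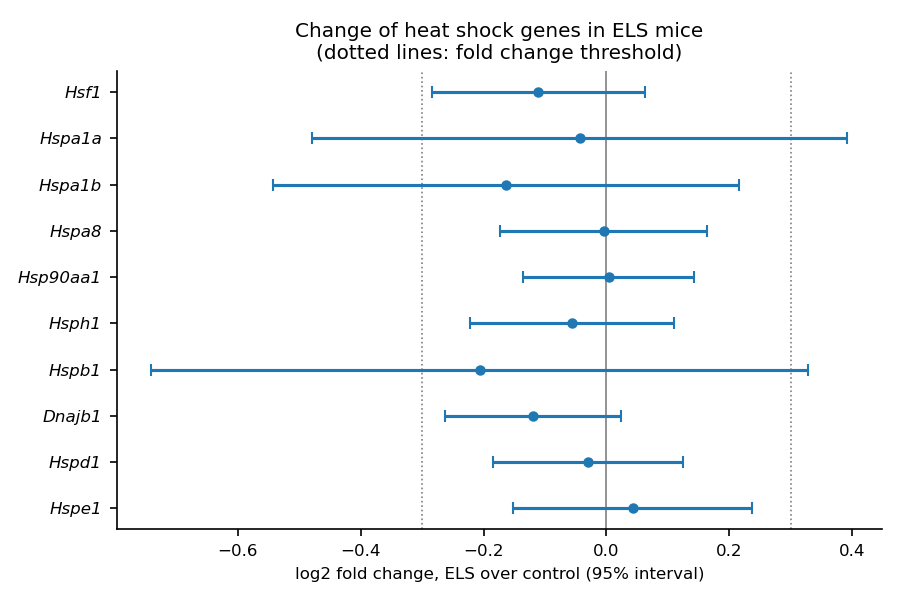
Log2 fold change of each heat shock gene in ELS mice over control mice (x axis; point, with its 95% interval from edgeR as the bar), with dotted lines at the fold change threshold of 0.3 in either direction. Every interval crosses 0, and those of Hspa8, Hsp90aa1, Hsph1, Hspd1, Hspe1, Hsf1 and Dnajb1 stay inside both dotted lines, whereas those of Hspa1a and Hspb1 reach past both and that of Hspa1b past the lower one.

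The levels of the 10 genes spanned a wide range. On a scale per exon length, in TPM (transcripts of each gene as a share of all, after dividing by exon length), the constitutive Hsp70 gene Hspa8 was highest, with a mean level of 1522 TPM over the 6 mice (SD 104, range 1387 to 1641). Hsp90aa1 followed at 1116 TPM (SD 48.5, range 1067 to 1192), with no overlap of the ranges. Hspd1, Hsph1 and Hspe1 came next at 222, 201 and 184 TPM, and the ranges of neighbours in this order overlapped. Dnajb1 stood apart from those above and below it at 95.04 TPM (SD 5.48, range 89.0 to 104). Hspb1 at 18.4 TPM and Hsf1 at 16.2 TPM overlapped. Lowest were the inducible Hsp70 genes, Hspa1b at 7.001 TPM (SD 0.996) and Hspa1a at 5.13 TPM (SD 0.922), whose ranges overlapped each other but not that of Hsf1. The middle of this order rests on the length used, the union of exons. Divided by the longest annotated transcript instead, a choice made after seeing the data, Hsph1 (71.2 CPM per kb) and Hspe1 (65.5 CPM per kb) stood above Hspd1 (56.2 CPM per kb), and Hsf1 (8.53 CPM per kb) above Hspb1 (4.73 CPM per kb), while the other ranks were the same.

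**Figure D2:**
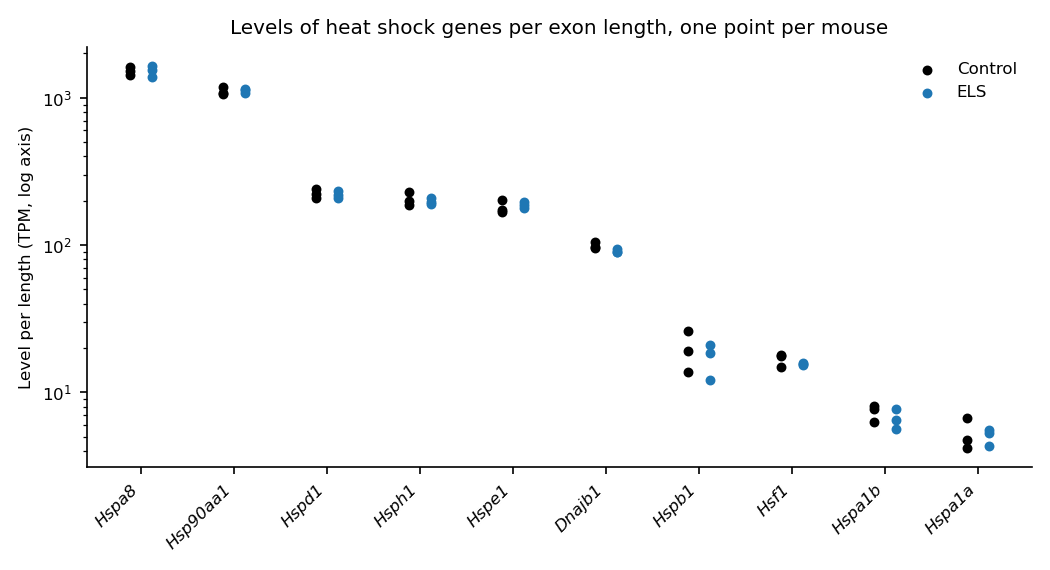
Level per exon length of each heat shock gene in TPM (y axis, log scale), with 1 point per mouse and genes ordered by their mean over the 6 mice. Hspa8 has the highest level at a mean of 1522 TPM and Hspa1a the lowest at 5.13 TPM, and control and ELS points overlap or lie close together for every gene.

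For Hsf1, the regulator itself, control mice 1, 2 and 3 had 29.0, 28.9 and 25.4 CPM, while ELS mice 1, 2 and 3 had 25.8, 26.0 and 25.4 CPM, and the other genes are given in the same order of mice. Control mice 1 and 2 were higher than the others, while control mouse 3 lay at the level of the ELS mice, so the groups overlapped. Control mice averaged 27.8 ± 2.05 CPM (SD, n = 3) and ELS mice 25.7 ± 0.289 CPM, a log2 fold change of -0.11 (SE 0.080, 95% interval -0.28 to 0.06). The coefficient of variation of Hsf1 was 7.38% among control mice and 1.13% among ELS mice, the latter below the 3.46% that counting alone gives, and the difference was not tested. Without control mouse 3, the unadjusted p of Hsf1 in edgeR went from 0.191 to 0.0385 with a log2 fold change of -0.17, and the gene was not called.

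The inducible Hsp70 genes Hspa1a and Hspa1b are the classical targets of Hsf1 and encode nearly the same protein. Hspa1a had 4.52, 2.83 and 3.39 CPM in control mice, compared with 2.97, 3.63 and 3.85 CPM after ELS, resting on 80 to 139 reads per mouse. The highest and the lowest value were both from control mice, and all 3 ELS mice lay between them. Its means were 3.58 ± 0.857 and 3.48 ± 0.457 CPM (SD, n = 3), with a log2 fold change of -0.04 (SE 0.201) that was 0.16 without control mouse 1. Hspa1b had 5.20, 4.04 and 5.20 CPM in the controls, against 4.23, 3.63 and 5.05 CPM in ELS mice, from 114 to 163 reads per mouse. Here ELS mouse 2 was lowest, and ELS mouse 3 was close to the higher control mice. The log2 fold change of Hspa1b was -0.16 (SE 0.175), and ran from -0.29 without ELS mouse 3 to -0.06 without ELS mouse 2. The 95% intervals of both genes were wide, and the change in ELS mice lay between -28.3% and 31.2% for Hspa1a, and between -31.4% and 16.1% for Hspa1b.

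Hspa1a and Hspa1b share sequence, so reads that match both could be lost when uniquely mapped reads are counted. Of the stretches of 151 bases (the read length) in the Hspa1a transcript, 45.8% also occur in another gene, mostly in Hspa1b, and 40.3% of those in Hspa1b do, so the split between them is uncertain. Hspa1a also overlaps the annotated gene Gm20481 on the opposite strand over 19.0% of its exon, and whether the counting used strand was not stated. The summed level of both was 8.39 ± 1.43 CPM over controls and 7.79 ± 0.964 CPM over ELS mice (SD, n = 3). Fitted as 1 gene, the sum gave a log2 fold change of -0.11 (SE 0.147, 95% interval -0.43 to 0.21, adjusted p = 0.99996 by edgeR).

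Hspa8, the constitutive partner of the same family, had 1602, 1404 and 1560 CPM in control mice, compared with 1634, 1374 and 1545 CPM after ELS. The group means, 1522 ± 104 and 1518 ± 132 CPM (SD, n = 3), were nearly the same, and mouse 2 of each group was the lowest. At this depth counting error was small, and the 95% interval of the difference ran from -11.3% to 12.1% in ELS mice. The 2 inducible genes together made up 0.656% to 0.898% of the summed TPM of Hspa1a, Hspa1b and Hspa8. The share averaged 0.816% ± 0.0850 over controls and 0.765% ± 0.101 over ELS mice (SD, n = 3; exact permutation test, two-sided, p = 0.6, adjusted p = 0.9 over 7 ratios, where 3 against 3 mice cannot go below 0.1). For Hspa8, 22.2% of the 151-base stretches also occur elsewhere, mostly in Gm26825, and for Hsp90aa1 36.0%, mostly in Gm12346, so reads from these stretches could be missing from their counts. The part shared is larger for Hspa1a (45.8%) and Hspa1b (40.3%), so their share of the summed TPM could be too low.

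Dnajb1 and Hsph1 encode partners that drive the Hsp70 cycle, Dnajb1 as the J-domain protein that stimulates ATP hydrolysis and Hsph1 as the Hsp110 protein that helps release ADP. Dnajb1 had 76.4, 70.3 and 74.0 CPM in the controls, against 70.2, 66.5 and 66.7 CPM in ELS mice. It was the only one of the 10 genes whose groups did not overlap, and the gap between control mouse 2 and ELS mouse 1 was very small. Among all genes tested, 8.28% had groups that did not overlap, 4.47% with ELS mice below, so 1 of 10 is close to the background. The means were 73.6 ± 3.07 and 67.8 ± 2.08 CPM (SD, n = 3), and the log2 fold change was -0.12 (SE 0.0660, 95% interval -0.26 to 0.02, unadjusted p = 0.0963 and adjusted p = 0.99998 by edgeR). With a covariate for striatal markers, chosen after seeing the data, its unadjusted p in edgeR was 0.0384, and it was not called.

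Hsph1 had 382, 332 and 324 CPM in control mice, compared with 349, 317 and 331 CPM after ELS. Control mouse 1 was the highest and ELS mouse 2 the lowest, with the other mice in between and the groups overlapping. The log2 fold change was -0.06 (SE 0.0765), and the interval ran from -14.3% to 7.89%. Without control mouse 1 the log2 fold change was 0.022, and without control mouse 3 it was -0.10. The TPM ratio of Hspa8 to Dnajb1 came to 15.4 ± 0.458 over controls and 16.7 ± 1.10 over ELS mice (SD, n = 3; exact permutation test, p = 0.3, adjusted p = 0.9). The ratio of Hspa8 to Hsph1 was 7.46 ± 0.592 and 7.70 ± 0.334 (exact permutation test, p = 0.8, adjusted p = 0.9). The exact test did not separate the groups in either ratio, and its smallest possible p was 0.1.

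Hsp90aa1 encodes the more inducible of the cytosolic Hsp90 proteins, whose clients include steroid receptors and kinases. It had 1072, 974 and 1004 CPM in the controls, against 1029, 978 and 1051 CPM in ELS mice. The groups overlapped almost fully, and Hsp90aa1 varied least of the 10 genes, with the highest mouse 1.10 times the lowest. Its log2 fold change was 0.0037 (SE 0.0644), with an interval from -8.998% to 10.5%. Hsp90ab1, the constitutive form, stood at 1.85 ± 0.0439 times the TPM of Hsp90aa1 in controls and 1.85 ± 0.0850 times after ELS (SD, n = 3; exact permutation test, p = 0.9, adjusted p = 0.9).

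Hspb1 encodes a small heat shock protein that holds unfolded proteins without using ATP and is known from vascular cells and stressed astrocytes. It had 6.17, 3.26 and 4.68 CPM in control mice, compared with 4.38, 2.86 and 5.05 CPM after ELS, from 92 to 190 reads per mouse. Control mouse 1 was 2.16 times as high as ELS mouse 2, the widest range of the 10 genes, and the groups overlapped. Its means of 4.70 ± 1.46 and 4.10 ± 1.12 CPM (SD, n = 3) gave the largest fold change of the 10, -0.21 on the log2 scale, with an SE of 0.247 that was larger than the change itself. Without control mouse 1 it was 0.042. The interval, from -40.2% to 25.6%, holds sizeable changes in either direction. Summed markers of mural cells came to 249, 239 and 237 CPM over the controls and 252, 234 and 267 CPM over the ELS mice, and those of endothelium to 152, 141 and 127 CPM and 160, 137 and 169 CPM. ELS mouse 2 was lowest for Hspb1 and for the mural sum, whereas the endothelial sum was lowest in control mouse 3. Control mouse 1, the highest for Hspb1, was highest for neither sum. The part of these cells in the Hspb1 values was not tested. Of all cell type markers, those that edgeR gave an unadjusted p under 0.05 were Cldn5 of endothelium (log2 fold change 0.31, unadjusted p = 0.0109, adjusted p = 0.970) and Pdgfrb of mural cells (log2 fold change 0.28, unadjusted p = 0.0251, adjusted p = 0.99998). Both had the higher mean in ELS mice, and neither was called. A processed copy, Hsp25-ps1, shares 36.5% of the 151-base stretches of Hspb1.

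Hspd1 and Hspe1 encode the chaperonin of the mitochondrial matrix and its lid, and are transcribed in opposite directions, with the 3 overlapping elements between the Hspe1 start and the inner Hspd1 start. Hspd1 had 146, 135 and 131 CPM in the controls, against 143, 127 and 134 CPM in ELS mice, with mouse 1 highest in both groups. Hspe1 had 58.4, 56.6 and 71.7 CPM in control mice, compared with 66.6, 61.0 and 64.8 CPM after ELS, with control mouse 3 highest and control mice 1 and 2 lowest. Both genes had overlapping groups, with log2 fold changes of -0.03 (SE 0.0711) for Hspd1 and 0.04 (SE 0.0896) for Hspe1. The intervals ran from -12.003% to 8.99% for Hspd1, and from -9.96% to 17.9% for Hspe1. Over the 6 mice, the log2 CPM of this pair had a Pearson r of -0.205.

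The TPM ratio of Hspe1 to Hspd1 came to 0.717, 0.750 and 0.979 in the controls, against 0.836, 0.860 and 0.866 in ELS mice. ELS mice sat close together inside the range of the control mice, and the difference was within the spread between mice (0.815 ± 0.143 and 0.854 ± 0.0156, SD, n = 3; exact permutation test, p = 0.8, adjusted p = 0.9). Control mouse 3 and ELS mouse 1, the highest for Hspe1, were also those with the highest summed markers of striatum, of oligodendrocytes (7556 and 6626 CPM) and of blood (85.2 and 79.7 CPM), and the part of each in the Hspe1 values cannot be told apart here. With the striatal covariate, chosen after seeing the data, the log2 fold change of Hspe1 was 0.014 (unadjusted p = 0.817 by edgeR). Without control mouse 3, Hspe1 had a log2 fold change of 0.16, with an unadjusted p of 0.0335 and an adjusted p of 0.384 in edgeR. The sign turned without control mouse 1 (-0.00040) and without control mouse 2 (-0.020). The exons of Hspd1 and Hspe1 overlap on opposite strands over 4.24% and 7.60% of their length, where reads without strand could not be assigned to either. Of the 151-base stretches of Hspd1, 18.4% also occur in the pseudogene Hspd1-ps3, whereas none of those of Hspe1 occur elsewhere, which bears on the ratio and on the place of Hspd1 in the order of levels. With the longest transcript as the length, the mean ratio over the 6 mice was 1.17 in place of 0.835, a constant factor that leaves the comparison of groups as it was.

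**Figure D3:**
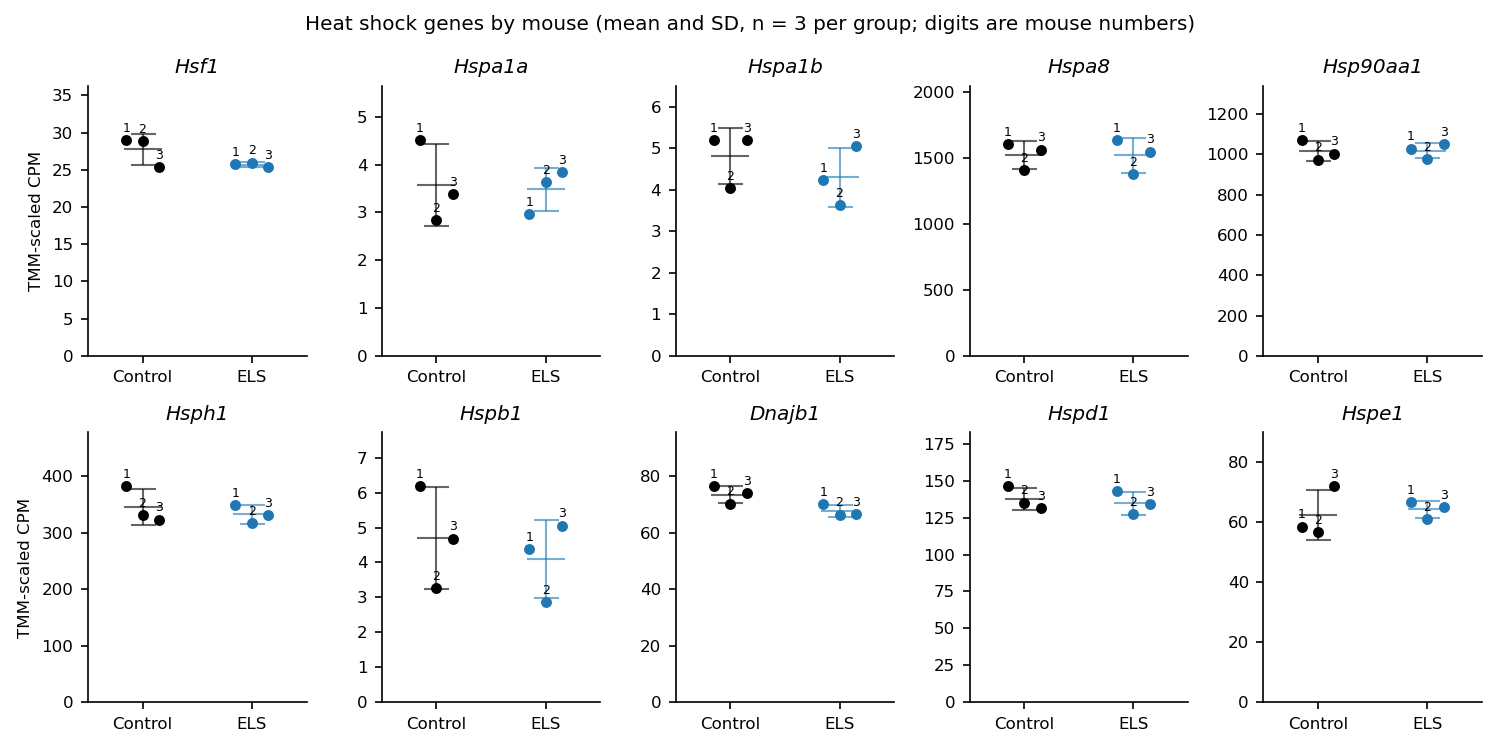
TMM-scaled CPM (y axis from 0, a separate scale per gene) of the heat shock genes in control mice (black) and ELS mice (blue), with 1 numbered point per mouse and the mean with SD (n = 3 per group) as lines. The groups overlap in every panel except Dnajb1, where control mouse 2 at 70.3 CPM and ELS mouse 1 at 70.2 CPM nearly touch.

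Mice of the same group differed from each other. Control mouse 1 was the highest of the 6 mice for 7 of the 10 genes, whereas 17.2% of all genes tested were highest in that mouse. ELS mouse 2 was the lowest for 6 of the 10, against 12.9% of all genes, and control mouse 2 was the lowest for 3 more. Scaled to the mean and SD of each gene over the mice, the average of the 10 genes stood at 1.09, -0.554 and 0.135 for the controls and at 0.147, -0.911 and 0.0916 for the ELS mice. The control group thus held the highest mouse, and both groups had a mouse 2 that was low. For the abundant genes this spread exceeded counting error: over the 6 mice Hspa8 varied with a coefficient of variation of 7.01%, where counting alone gives 0.458%, and Hsph1 with 6.96% against 0.970%. For Hspa1a and Hspa1b, 17.5% and 14.9% stood against counting values of 9.49% and 8.38%. Hspb1 had the widest variation at 27.5%, against 8.53% from counting. These counting values cover sampling of reads only.

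**Figure D4:**
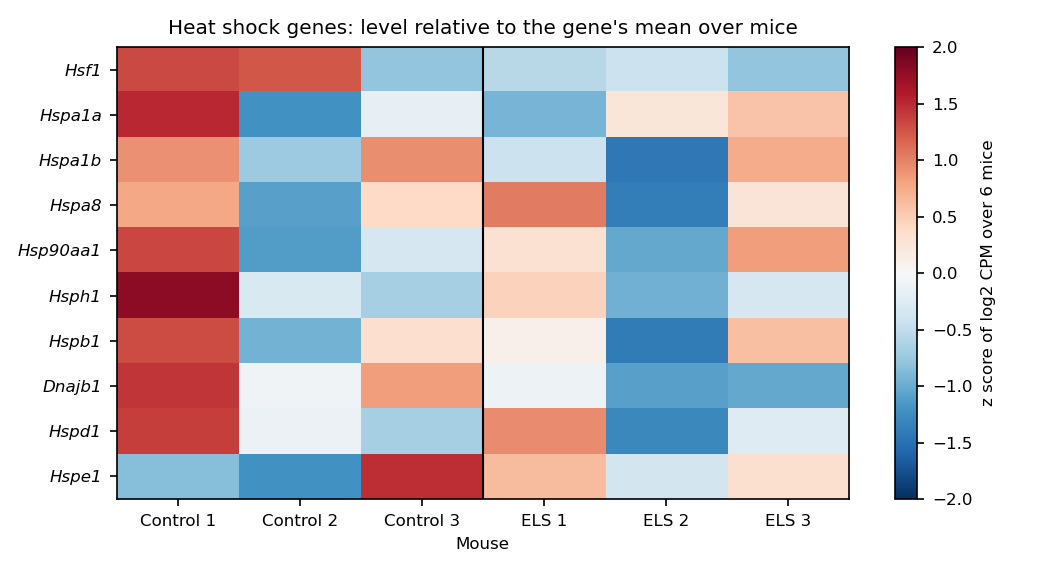
Level of each heat shock gene (rows) in each mouse (columns, control mice left of the line) as a z score of log2 CPM over the 6 mice, red above and blue below the mean of the gene. Control mouse 1 is red for all genes but Hspe1, and ELS mouse 2 is blue for all genes but Hspa1a.

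Across the 6 mice, the 45 pairs of heat shock genes had a median Pearson r of 0.498 on log2 CPM, from -0.846 to 0.944. These points share 6 libraries and their scaling, so the values describe this set of mice. The closest pairs were Hsph1 with Hspd1 (r = 0.944), Hsp90aa1 with Hspb1 (r = 0.929), Hspa1b with Hspb1 (r = 0.916), Hspa8 with Hspb1 (r = 0.867) and Hspa8 with Hsp90aa1 (r = 0.813). They cross the classes of chaperone, joining an Hsp110 protein with a mitochondrial one and a small heat shock protein with an Hsp90 and Hsp70 proteins. The lowest value was that of Hsf1 with Hspe1 (r = -0.846), and 6 of 45 pairs lay below 0.

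A score for the inducible genes, the mean z score of Hspa1a, Hspa1b, Hsph1, Dnajb1, Hsp90aa1 and Hspb1, stood at 1.38, -0.728 and 0.155 for the controls and at -0.100, -0.940 and 0.230 for the ELS mice. Of 13175 other genes, those most like it over the 6 mice were Gmip (r = 0.990), Slc3a2 (r = 0.979), Figf (r = 0.976), Myl9 (r = 0.970) and Zscan18 (r = 0.970), while 62 genes (0.471%) had an r above 0.9 and 42 an r below -0.9. Like the score, Gmip was highest in control mouse 1 at 7.93 CPM and low in mouse 2 of both groups at 5.35 and 5.32 CPM. None of these 5 genes is a chaperone. They are the highest of 13175 values over only 6 mice. Whether unlinked genes would reach such values was not tested.

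The wider chaperone network was read from lists of 66 genes, of which 65 were in the table and 60 passed the filter. Hsf5, Hspa1l, Cryaa, Hspb2 and Hspb7 were under it, with at most 19 reads in any mouse. None of the 60 was called. At an unadjusted p under 0.05 in edgeR, 0 were higher and 3 lower in ELS mice, namely Dnajb5, Hspb8 and Ubb, where 2.34% of all genes were lower at that level. With Chordc1, an Hsp90 co-chaperone named here after its values were seen, they were also the 4 of 60 whose ELS mice lay entirely below the control mice, and 0 of 60 lay entirely above, where 8.28% of all genes had groups that did not overlap and 4.47% had ELS mice below. The median log2 fold change of the 60 genes was -0.0060, near the -0.0046 of all genes. The lists were chosen with earlier results of these data known, so their counts are not independent of those results.

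Dnajb5, a J-domain partner of Hsp70 related to Dnajb1, had 149.6, 142.0 and 118.3 CPM in the controls, against 117.2, 111.0 and 107.2 CPM in ELS mice. All control mice were above all ELS mice, though control mouse 3 was only just above ELS mouse 1. The means were 137 ± 16.3 and 112 ± 5.05 CPM (SD, n = 3), a log2 fold change of -0.29 (SE 0.0861, unadjusted p = 0.00539, adjusted p = 0.877 by edgeR). The gene was called in 1 of 18 alternative analyses, without control mouse 3, where the adjusted p of edgeR was 0.0221 and the log2 fold change -0.38. Over all 18 the adjusted p ran from 0.0221 to 0.99999.

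Hspb8, a small heat shock protein that works with Bag3 in clearing aggregates, had 16.7, 16.3 and 18.5 CPM in control mice, compared with 15.5, 14.04 and 14.9 CPM after ELS. Its log2 fold change was -0.21 (SE 0.0912, unadjusted p = 0.0383, adjusted p = 0.99998 by edgeR), and no alternative called it. Its unadjusted p was under 0.05 in 13 of 18 alternatives and in 3 of the 6 that left out a mouse, but not in DESeq2, where it was 0.0586. Ubb, a polyubiquitin gene that Hsf1 is known to induce, had 470, 433 and 418 CPM in the controls, against 400, 402 and 382 CPM in ELS mice. With a log2 fold change of -0.16 (SE 0.0669, unadjusted p = 0.0357, adjusted p = 0.99998 by edgeR), it too was called in none of the alternatives. The unadjusted p of Ubb was under 0.05 in 13 of 18 alternatives, but in only 1 of the 6 that left out a mouse. For both genes the 13 include the setting with no fold change threshold, which repeats the p of the main test. In edgeR's test of all 6 mice, Ubb and Hspb8 were the 2 of 14 further genes known as Hsf1 targets with an unadjusted p under 0.05, against 4.23% of all genes tested and 2.34% that were lower. The median over those 14 was -0.04 on the log2 scale, with 11 below 0 and 3 above, where 52.5% of all genes were below 0. This list too was chosen with earlier results of these data known, so these counts describe it and test nothing.

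By class, the medians were as follows. The 7 other Hsp70 and Hsp110 genes had a median log2 fold change of -0.01, with Hspa4, a relative of Hsph1, at 0.01 and Hspa12a at -0.01. Among 9 J-domain genes the median was -0.0068, with Dnaja2 at -0.00078 and Dnajc5, the synaptic vesicle protein, at -0.01. For the 8 nucleotide exchange factors and Hsp70 regulators it was 0.01, with Bag1 at -0.0072 and the ubiquitin ligase Stub1 at -0.03. The 11 genes of the Hsp90 system had a median of -0.02, with Hsp90ab1 at 0.0059 and Stip1, which joins Hsp70 to Hsp90, at -0.06. Over all genes tested, 70.5% had an absolute log2 fold change under 0.1.

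The 4 small heat shock genes that passed the filter had the lowest median, -0.13, and 1 of them, Hspb8, was under an unadjusted p of 0.05. Cryab, the most abundant of them at 258 TPM and known from glia, had a log2 fold change of -0.06. Hspb3 and Hspb6, named here to complete these 4, stood at -0.24 and 0.014. Hspb3 rested on only 52 to 101 reads per mouse. The 7 subunits of the cytosolic chaperonin TRiC had a median of 0.0057, with Cct5 at -0.0075 and Cct8 at 0.03. For 9 mitochondrial chaperones and proteases, the class nearest to Hspd1 and Hspe1, it was -0.0052, with the mitochondrial Hsp70 gene Hspa9 at -0.0052 and Clpp at 0.0082. Of the 3 heat shock factors and regulators tested beside Hsf1, the median was 0.02, with Hsbp1, which binds Hsf1 trimers, at 0.08 and Hsf4 at 0.02.

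**Figure D5:**
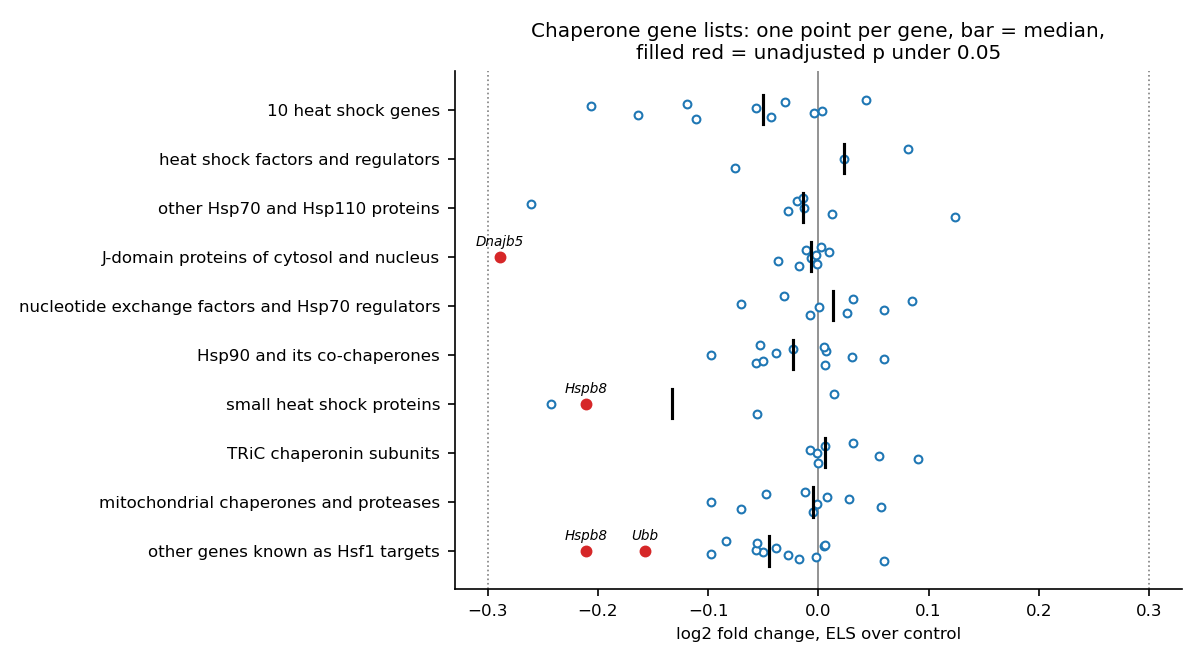
Log2 fold change in ELS mice over control mice (x axis) of the heat shock genes and of 9 chaperone lists (rows), with 1 point per gene, the median as a bar, and filled points for an unadjusted p under 0.05. Only Dnajb5, Hspb8 and Ubb are filled, Hspb8 in the rows of both lists that hold it, and no point reaches the dotted lines at 0.3 in either direction.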

How the data were processed

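RNA-seq libraries from PFC of 3 control and 3 ELS mice were analysed. Trimmed reads were mapped by the authors to mm10 (STAR), and those mapping uniquely were assigned to genes (HTSeq); the deposited values are raw counts for each gene symbol, neither normalized nor pooled. The submitters' processing notes name STAR 2.7.1a and HTSeq 0.9.1, whereas the study's methods name an earlier version of STAR. The annotation release and the strand setting are not given in the sources used here. The labels name a stranded library kit. The ELS columns are headed SI, and were matched to ELS mice by social isolation and number. Of 22000 symbols, 27 had been turned into dates, and 19588 matched 1 gene of GENCODE M21, used for positions and exon lengths.

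The test was that of edgeR 4.0.16 in R 4.3.3. A gene was kept when every mouse of one or the other group had 1 CPM or more. TMM factors (0.992 to 1.02) scaled the libraries, and the quasi-likelihood test compared the groups in all 6 mice with no covariate. The F statistic gave the standard errors, Benjamini-Hochberg adjustment ran over 13185 genes, and spreads are SDs over mice. The thresholds and the filter are those of the study's methods. TPM values used the union of exons of each gene. Within a group, no library repeated another: for mice of 1 group, chi-square divided by its degrees of freedom was at least 6.39. Pairs of a control and an ELS mouse were not compared in this way. With 28405795 counts or more per mouse, the spread over all 6 mice, groups together, exceeded counting error for all 10 genes, and counting values cover sampling of reads only. Ratios were compared by exact permutation over mice, two-sided.

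The genes named were the 10 heat shock genes; from each chaperone list, the genes past both thresholds, otherwise up to 3 with the smallest unadjusted p under 0.05 and the 2 with the highest TPM; and the 5 genes most correlated with the mean z score of 6 inducible genes. The members and lists were chosen with earlier results of these data known. Alternatives were DESeq2 1.42.0, the likelihood ratio test, limma-voom (limma 3.58.1), other scaling factors and gene filters, no fold change threshold, Hspa1a and Hspa1b summed, a replicate block, leaving out each mouse, and, added after seeing the data, a covariate of striatal markers and another gene length. The tests were also run on simulated counts, with planted changes larger than any seen in the 10 heat shock genes. That run cannot say how well changes of the size seen here would be found.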

Additional observations from a re-analysis of the deposited data

How the results depend on the processing

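None of the 10 heat shock genes passed both thresholds in any of 18 alternatives. The count over all genes, 2 in edgeR's quasi-likelihood test, was 18 with DESeq2, 28 with edgeR's likelihood ratio test, 4 when every gene with at least 1 read was kept and 29 with the striatal covariate chosen after seeing the data; without 1 mouse it ran from 1 to 29 (29 without control mouse 3), and the causes were not tested. With the replicate block it was 7, with 0 heat shock genes called; same-numbered mice had correlations of their deviations of -0.123, 0.213 and -0.0312, so the numbers were not taken to pair them.

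The median log2 fold change of the 10 genes ran from -0.09 (without control mouse 3) to 0.019 (without control mouse 1), and lay below 0 in every alternative but that one. Of 178 fold changes of single genes, 16 changed sign and 0 were called. The 178 include those with no fold change threshold, which repeat the main fit and cannot change sign. Hspa8 turned to 0.0077 with upper-quartile factors. Without 1 mouse, the ranges were -0.18 to 0.16 for Hspa1a, -0.063 to 0.060 for Hspa8, -0.026 to 0.044 for Hsp90aa1, -0.10 to 0.022 for Hsph1, -0.41 to 0.042 for Hspb1, -0.076 to 0.016 for Hspd1 and -0.020 to 0.16 for Hspe1. Hsf1 (-0.17 to -0.077), Hspa1b (-0.29 to -0.057) and Dnajb1 (-0.15 to -0.090) stayed below 0 in every alternative that fitted them singly. Counting error was largest for Hspa1a, Hspa1b and Hspb1 (8.38% to 9.49%), where the spread over the 6 mice was 14.9% to 27.5%. With the longest transcript as gene length, chosen after seeing the data, the ranks of Hspd1, Hsph1, Hspe1, Hspb1 and Hsf1 by level changed.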
